A study of Drosophila melanogaster with 6 samples.

Results

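The genes described here encode the proteins of the mitochondrial ribosome, measured in female Drosophila melanogaster larvae of the third instar, taken whole, with and without a roX1 transgene. A gene was taken where the platform annotation lists it under a symbol that starts with mRpL or mRpS and a digit, as the only gene of a probeset, and each gene was read by its brightest probeset over the 6 arrays. This gave 69 genes, 44 with mRpL symbols and 25 with mRpS symbols, from 71 probesets of 18952 on the array. Another 2 probesets hold such a symbol beside a second gene and were not used. The RefSeq gene table holds 4 further genes with such symbols, mRpL34, mRpL37, mRpL53 and mRpS10, which are not analysed here.

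RNA was hybridised to 6 Affymetrix Drosophila Genome 2.0 arrays, 3 per genotype, and each array received RNA from a pool of 50 larvae. The mutant larvae carried roX1SMC17ADf(1)52 and the transgene [w+4D4.3], and lacked roX1 and roX2. The control larvae carried the same alleles and [w+4D4.3], and in addition the transgene [hsp83-roX1+], in which the hsp83 promoter drives roX1, so the controls are not wild-type animals and lack roX2 as well. The series asks whether females need roX RNAs, which are noncoding RNAs of the male dosage compensation complex, for normal gene expression. The values are log2 expression values, differences are mutant minus control, and 1 unit is a doubling of signal.

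Mitochondria keep their own ribosome, which translates the few proteins still encoded in mitochondrial DNA, all of them core subunits of the respiratory chain and ATP synthase. Its RNAs come from mitochondrial DNA, and its proteins are made from nuclear genes in the cytosol and imported. Part of these proteins have counterparts in bacterial ribosomes, and the rest are found only in mitochondria. In flies the S12 gene tko, whose mutants develop slowly and are sensitive to mechanical shock, is the classical example of a mutation in this machinery.

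The arrays were alike over all tested probesets, with correlations of 0.9777 to 0.9955 among arrays of 1 genotype and of 0.9774 to 0.991 across genotypes. No probeset is listed under roX1 or roX2 (0 in the annotation), so the targeted genes were not analysed here and do not check the labels. All 8 salivary gland genes of the marker list, which include the glue genes of late larvae, lay above the filter on level. Control replicate 1 stood apart from the other arrays in the genes described here, and the results are given with and without it. It was also often extreme in the whole table, as the highest array in 28.1% and the lowest in 25.9% of all 8882 tested genes. Mutant replicate 3 was the lowest in 29.5%. The array weights of limma, which are smaller for more variable arrays, were lowest for control replicate 1 (0.275) and mutant replicate 3 (0.425), and reached 2.92 in mutant replicate 2.

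No mitochondrial ribosomal protein gene passed the test between mutant and control females. All 69 genes lay above the filter on level, with means over the 6 arrays from 7.52 to 10.6 and a median of 8.76, where the dimmest probeset tested had 4.51. Signals of different probesets depend on their probes and were not ranked. Of the 69 genes, 0 were called at a limma adjusted p under 0.05, where 0.529% of 8882 tested genes and 0.551% of all tested probesets were called. At an unadjusted p under 0.05 there were 2 of 69, both higher in the mutant (mRpL39 and mRpL15), beside 9.05% of all tested genes in either direction and 4.45% higher in the mutant. The 3 mutant values lay wholly above or below the 3 control values in 12 of the 69 genes (17.4%), and in 16.3% of all tested genes. The mutants were wholly higher in 10 of the 69 genes, and in 7.23% of all tested genes. They were wholly lower in 2 of the 69, and in 9.09% of all tested genes.

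The intervals of these differences were narrow. The 95% interval of the difference lay within 0.5 of 0 on the log2 scale for 66 of 69 genes (95.7%), and for 78% of all tested genes. It lay within 0.3 of 0 for 34 genes (49.3%), against 33% of all tested genes. The exceptions to the wider limit were mRpL39, mRpL55 and mRpL11, whose intervals reached up to 0.80, 0.52 and 0.50. The median SD within groups was 0.103 for the 69 genes and 0.127 for all tested genes. The intervals are those of single genes, without adjustment for their number.

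**Figure D1:**
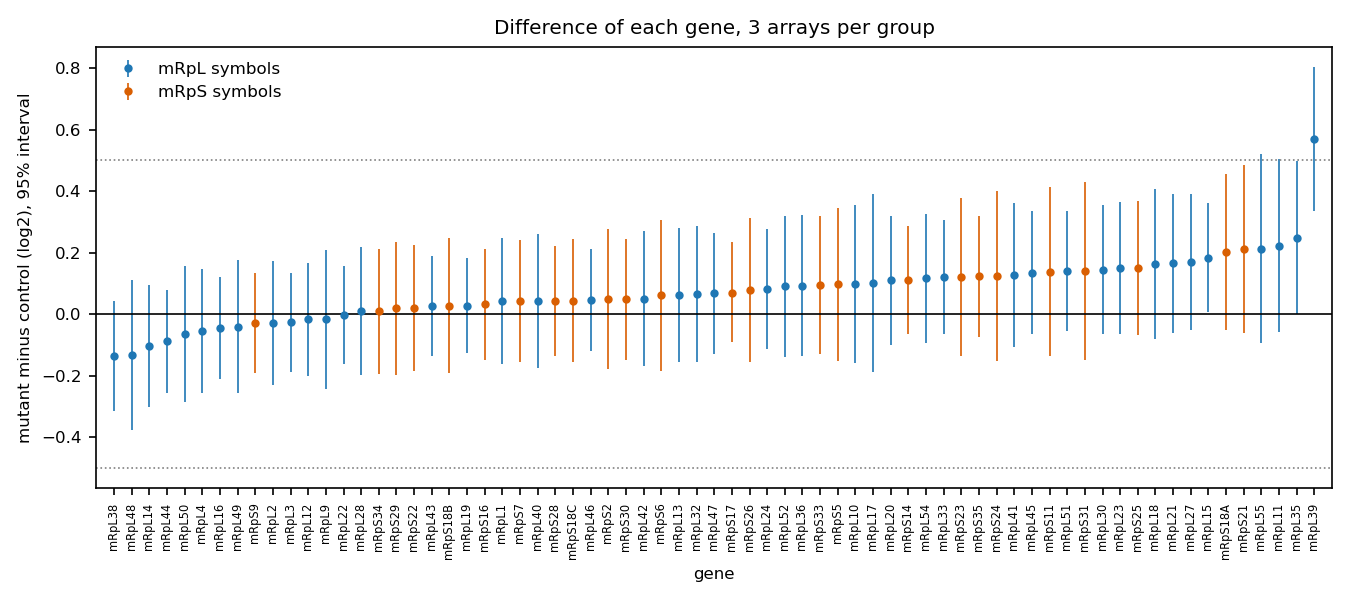
Difference in log2 value, mutant minus control, of each of the 69 genes with its 95% interval from limma (3 arrays per group), ordered by size and coloured by symbol; dotted lines mark 0.5 above and below 0. mRpL39, at 0.57, lies apart from the other genes, whose differences run from -0.14 to 0.25.

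Among the genes of the large subunit, mRpL39 had the largest difference. It encodes a protein with no bacterial counterpart. Its log2 values were 8.65, 8.49 and 8.47 in mutant replicates 1 to 3 and 7.82, 8.09 and 8.0 in control replicates 1 to 3. Every mutant value lay above every control value, with a gap of 0.384 between the groups. The difference was 0.57 (SE 0.10, 95% interval 0.33 to 0.80), a ratio of 1.48, and it did not pass after adjustment over all probesets (limma adjusted p = 0.094). It was called with array weights in limma (0.51, adjusted p = 0.0211), where 2.06% of all tested probesets were called. Without control replicate 1 the difference was 0.49 (limma adjusted p = 0.0972), and 0 of the 69 genes were called against 0.746% of all tested probesets. At an unadjusted p under 0.05 there were then 2, mRpL39 and mRpL48, against 10.7% of all tested genes.

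mRpL15, the counterpart of a core bacterial large-subunit protein, had the next smallest p. Its values were 8.93, 8.92 and 8.95 in the mutants and 8.66, 8.83 and 8.76 in the controls, so the groups did not overlap. The difference was 0.18 (SE 0.07; limma adjusted p = 0.536). mRpL35, also of bacterial type, had values of 8.74, 8.75 and 8.78 in the mutants and 8.30, 8.58 and 8.65 in the controls. These groups did not overlap either, and control replicate 1 lay farthest from the rest. Its difference of 0.25 (limma adjusted p = 0.551) was 0.14 without that array.

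mRpL11, which lies at the base of the stalk that binds translation factors, had values of 8.02, 8.08 and 7.78 in the mutants and 7.56, 7.82 and 7.83 in the controls. The groups overlapped, since mutant replicate 3 lay below control replicates 2 and 3, and the difference of 0.22 did not pass (limma adjusted p = 0.634). mRpL12, the stalk protein itself, had a mean of 9.39 ± 0.03 in the mutants and 9.41 ± 0.09 in the controls (SD, n = 3 per group), a difference of -0.02 (95% interval -0.20 to 0.17). The single genes mRpL11 and mRpL12 thus gave differences of 0.22 and -0.02, neither of which passed.

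The lowest differences of the 69 genes were in mRpL38, mRpL48 and mRpL14. mRpL38, a mitochondria-specific protein related to phosphatidylethanolamine-binding proteins, had values of 8.14, 8.02 and 8.19 in the mutants and 8.22, 8.27 and 8.26 in the controls. All 3 mutant values lay below the controls, by amounts that did not pass (difference -0.14, limma adjusted p = 0.649). mRpL48, also mitochondria-specific, had 7.87, 7.71 and 7.79 in the mutants and 7.74, 7.98 and 8.05 in the controls. Control replicate 1 lay among the mutants here, and the difference of -0.13 (limma adjusted p = 0.732) was -0.22 without it (limma adjusted p = 0.41). mRpL14, of bacterial type, had a difference of -0.10 (limma adjusted p = 0.741).

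The 3 genes with the smallest within-group SD, mRpL19, mRpL22 and mRpL3, were of the large subunit and of bacterial type. Close behind came mRpL43 (0.038), which is mitochondria-specific, and mRpS17 (0.039), of the small subunit. mRpL19 had values of 8.59, 8.62 and 8.60 in the mutants and 8.57, 8.59 and 8.56 in the controls, a range of 0.054 over 6 arrays. mRpL22, whose bacterial counterpart lines the exit tunnel, had a within-group SD of 0.032, and mRpL3, whose counterpart lies near the catalytic centre, one of 0.035. The differences of these 3 genes were 0.03, 0.00 and -0.03. The largest within-group SD were those of mRpL55 (0.18), mRpS31 (0.166), mRpL17 (0.166) and mRpL11 (0.158). In mRpL55 the control values were 8.52, 8.91 and 8.95 and the mutant values 9.08, 9.05 and 8.90, so that control replicate 1 alone lay well below the rest. Over the 69 genes the range over 6 arrays had a median of 0.276, and over all tested genes one of 0.36.

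**Figure D2:**
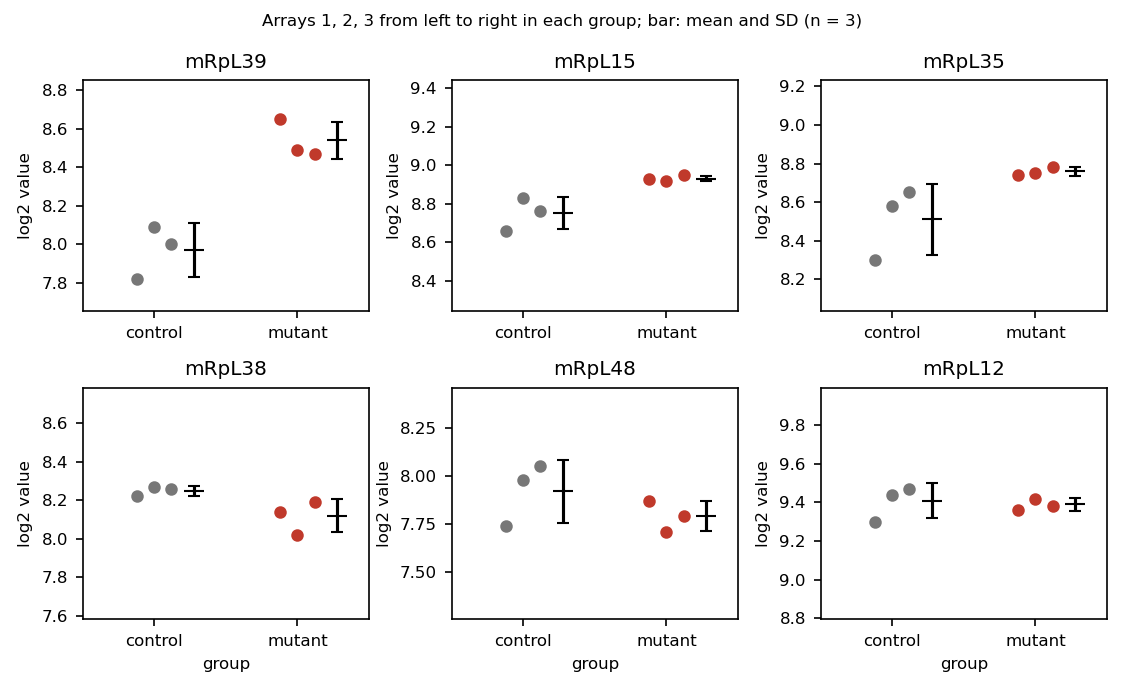
Log2 values of 6 genes on each array, with the mean and SD of each group (n = 3); every panel spans 1.2 log2 units. The groups are apart in mRpL39, mRpL15, mRpL35 and mRpL38, and they overlap in mRpL48 and mRpL12.

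Genes with mRpS symbols were not called either. Among these 25 genes, mRpS18A and mRpS30 were classed with the mitochondria-specific genes of the large subunit. The differences of the 25 genes ran from -0.03 to 0.21, and all 95% intervals lay within 0.5 of 0 (78% over all tested genes). At an unadjusted limma p under 0.05 there were 0 of them (9.05% over all tested genes). mRpS21, the counterpart of a bacterial small-subunit protein, had the largest difference, with 10.14, 10.25 and 9.98 in the mutants and 9.73, 9.94 and 10.07 in the controls. The groups overlapped, and the difference of 0.21 did not pass (limma adjusted p = 0.644). mRpS31, which is mitochondria-specific, had 8.65, 8.65 and 8.61 in the mutants and 8.23, 8.64 and 8.62 in the controls. Only control replicate 1 lay away from the other arrays, and the difference was 0.14 with it and 0.01 without it.

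Flies have several genes related to bacterial S18. mRpS18A, whose mammalian counterpart sits in the large subunit in spite of its symbol, had values of 9.27, 9.31 and 9.08 in the mutants and 8.85, 9.10 and 9.11 in the controls, a difference of 0.20 (limma adjusted p = 0.635). mRpS18B had 9.03, 8.92 and 8.86 against 8.77, 9.0 and 8.97, a difference of 0.03. mRpS18C had 8.34, 8.20 and 8.22 against 8.10, 8.28 and 8.25, a difference of 0.04. The groups overlapped in all 3 paralogs.

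A pair of genes was read by more than 1 probeset, and their probesets gave differences of the same sign. For mRpS11 the differences were 0.14 on the brighter probeset (8.77 on control replicate 1 and 9.0 to 9.19 on the others) and 0.21 on the dimmer (8.24 on control replicate 1 and 8.71 to 8.83 on the others). For mRpL47 they were 0.07 and 0.08, with 9.84 and 8.54 on control replicate 1, the lowest of the 6 arrays on each. None of these passed (limma adjusted p between 0.713 and 0.831).

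Most of the 69 genes had a slightly higher mean in the mutants, and this rested on control replicate 1. The mutant mean was the higher in 55 of 69 genes (79.7%) and in 48.8% of all tested genes. The median difference was 0.068 over the 69 genes and -0.0048 over all tested genes. Without control replicate 1 the mutant mean was higher in 35 of 69 genes (50.7%, against 48.5% of all tested genes), and the median difference was 0.00017. With any other array left out it lay between 0.052 and 0.12. Removing control replicate 1 turned 20 differences from higher to lower in the mutant and 0 the other way.

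On control replicate 1 nearly the whole set lay low together. It was the lowest of the 6 arrays in 58 of 69 genes (84.1%), and in 25.9% of all tested genes. It was the highest in 0 of the 69 genes, and in 28.1% of all tested genes. It lay below the 6-array mean in all of the 69 genes but mRpL16, mRpL38 and mRpL44, and in 49.2% of all tested genes. Against the mean of the other controls, the array had a median difference of -0.197 over the 69 genes, and the single genes ran from -0.408 in mRpL55 to 0.008 in mRpL16. The same difference had a median of 0.009 over all tested genes, with quartiles of -0.16 and 0.16. The genes next to mRpL55 at the low end were mRpS31 (-0.403), mRpS24 (-0.374), mRpL17 (-0.356) and mRpS11 (-0.322). At the other end mRpL46 (0.006), mRpL19 (-0.010) and mRpS17 (-0.014) differed from the other controls by little.

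**Figure D3:**
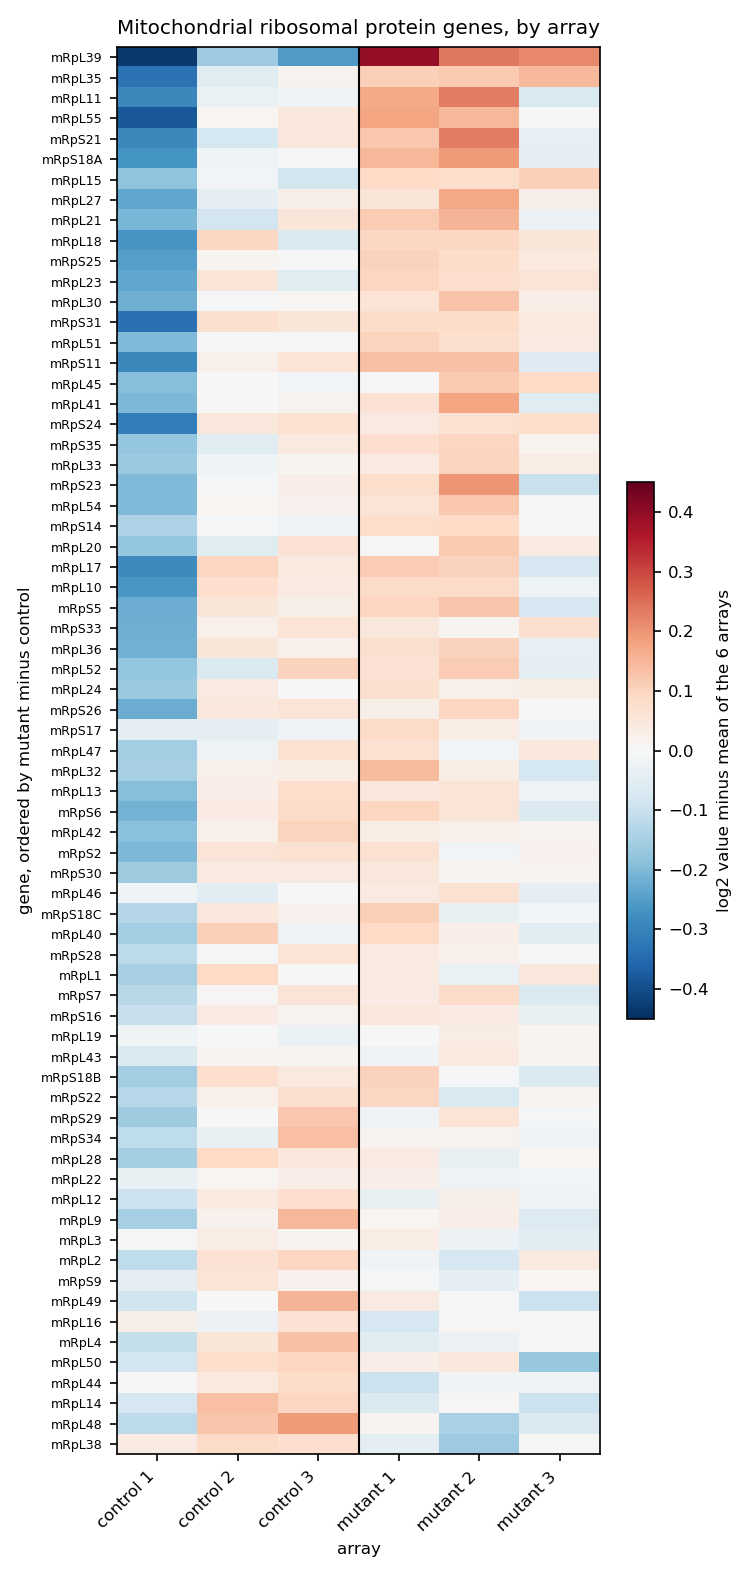
Log2 value minus the mean of the 6 arrays for each of the 69 genes (rows, ordered by mutant minus control) on each array (columns, controls left of the line); red is above and blue below the gene's mean. The column of control replicate 1 is blue in nearly every row, and mRpL39 in the top row is the gene with the clearest split between the groups.

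Each part of the ribosome showed this low value. The median deviation from the 6-array mean on control replicate 1 was -0.17 for the 29 large-subunit genes of bacterial type and -0.16 for the 17 mitochondria-specific ones. It was -0.15 for the 14 small-subunit genes of bacterial type and -0.20 for the 9 mitochondria-specific ones. Of the genes with mRpS symbols, 0 of 25 lay above their mean on that array, and of those with mRpL symbols 3 of 44. Over all 69 genes the medians were -0.17, 0.019 and 0.043 on control replicates 1 to 3 and 0.059, 0.061 and -0.0064 on mutant replicates 1 to 3. The group ranges overlap, with 0.038 ± 0.038 in the mutants and -0.036 ± 0.12 in the controls (mean ± SD, n = 3 per group). Over all tested genes the medians were 0.022, 0.014 and -0.05 on mutant replicates 1 to 3, and 0.0031 on control replicate 1.

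Nuclear genes of the respiratory chain and ATP synthase, whose complexes contain the products of the mitochondrial ribosome, were also low on control replicate 1 but followed a different course on the other arrays. The 50 tested genes had medians of -0.27, 0.11 and 0.05 on control replicates 1 to 3 and -0.01, -0.024 and 0.16 on mutant replicates 1 to 3. On mutant replicate 3 they lay above their mean in 48 of 50 genes, where the mitochondrial ribosomal genes did so in 33 of 69 and all tested genes in 35.5%. The 33 tested genes of the cytosolic ribosome stayed closer to 0, with medians from -0.021 on control replicate 1 to 0.023 on mutant replicate 2. The mutant mean was the higher in 38 of 50 respiratory chain and ATP synthase genes (76%) and in 48.8% of all tested genes. Without control replicate 1 it was the higher in 14 of the 50 (28%) and in 48.5% of all tested genes. The median difference of the 50 genes was 0.077 with that array and -0.039 without it. The difference between these sets was not tested.

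Marker genes of other tissues also varied between the arrays. The 8 tested of 12 muscle genes had medians of -0.43, 0.054 and 0.19 on control replicates 1 to 3 and -0.19, 0.023 and 0.43 on mutant replicates 1 to 3, and all 8 lay below their mean on control replicate 1. On that array the medians of the other lists were -0.081 for gut (8 tested of 9), 0.037 for fat body (3 of 6), 0.068 for salivary gland (8 of 8), 0.19 for neuron (5 of 6) and 0.057 for dividing cells (8 of 11). Signs of RNA quality did not set the array apart from the other controls. The excess of 3' over 5' signal of actin was 0.716 there and 0.704 and 0.744 on the other controls, and that of GAPDH was 1.35 there and 1.41 and 1.36. In mutant replicates 1 to 3 the actin values were 0.77, 0.94 and 0.902, all above the controls, and the GAPDH values were 1.46, 1.46 and 1.23, on both sides of the controls. The part of tissue makeup and RNA quality in the low values of control replicate 1 was not tested, and in pooled whole larvae fewer cells of a type and less RNA per cell cannot be told apart.

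**Figure D4:**
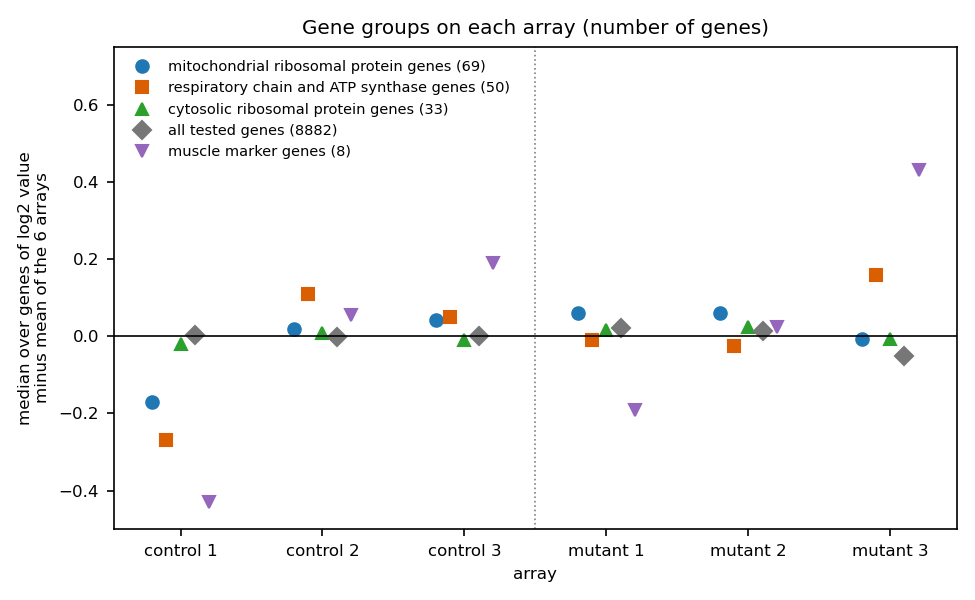
Median over genes of the log2 value minus the mean of the 6 arrays, for 5 gene groups on each array, with the number of genes in brackets. Mitochondrial ribosomal protein genes lie at -0.17 on control replicate 1 and between -0.0064 and 0.061 elsewhere, while respiratory chain and muscle genes are low on the same array and high on mutant replicate 3.

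By chromosome, the differences of the 69 genes lay near 0 on X and slightly above it on the autosomes, and the contrast between chromosomes was not tested. The X chromosome is the target of roX RNAs in males and carries 11 of the genes. Their median difference was -0.0032, with 5 of 11 higher in the mutant (45.5%), beside -0.037 and 38.5% over 1394 tested X-linked genes. The medians were 0.056 on 2L (12 genes), 0.060 on 2R (10), 0.097 on 3L (17) and 0.068 on 3R (19). Without control replicate 1 they were -0.021 on X (-0.023 over all tested X-linked genes), -0.014 on 2L, 0.012 on 2R, 0.010 on 3L and 0.0062 on 3R. The genes are scattered: 0 pairs of them are direct neighbours in the RefSeq order of protein-coding genes. The X-linked genes ran from mRpL38 (-0.14) to mRpS25 (0.15), and control replicate 1 was the lowest array in mRpS25, at 8.28 against 8.53 to 8.63 on the others.

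**Figure D5:**
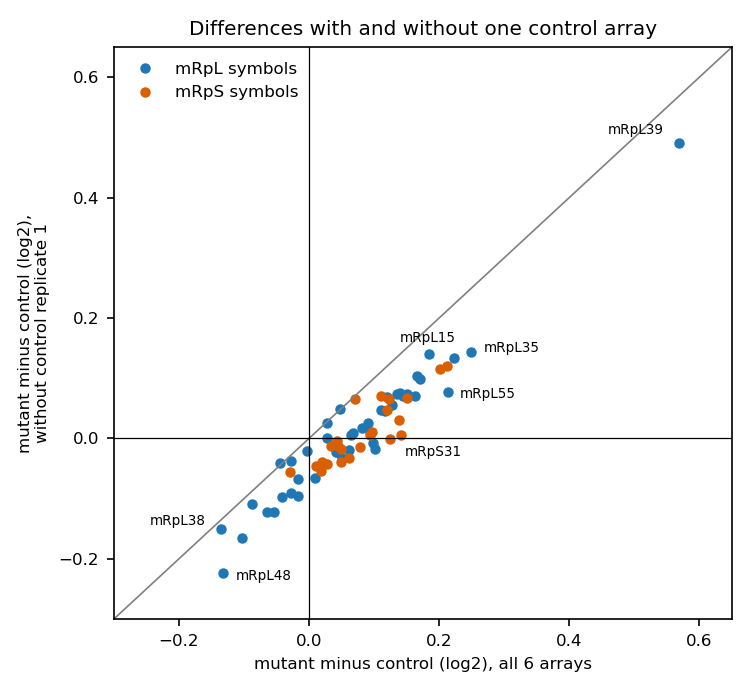
Difference in log2 value, mutant minus control, of each of the 69 genes with all 6 arrays (horizontal axis) and without control replicate 1 (vertical axis); the grey line marks equal values. Control replicate 1 lay below the mean of the other controls in 67 of 69 genes, which therefore fall below the line; the median moves from 0.068 to 0.00017, and mRpL39 stays apart at 0.57 and 0.49.

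None of the other tested genes of mitochondrial gene expression passed the test. The mitoribosomal protein genes bonsai (S15) and tko (S12, a protein of the decoding centre), which carry symbols of another form and are not among the 69 genes, had differences of 0.11 and 0.07 (limma adjusted p = 0.763 and 0.841). In bonsai control replicate 1 had 9.21 and the other arrays 9.44 to 9.56, and in tko it had 9.58 and the others 9.72 to 9.81.

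Of 15 names on the list of mitochondrial translation factors, 10 genes were tested, with a median difference of 0.033. Of the 10, 0 were called (0.529% of all tested genes) and 0 had an unadjusted limma p under 0.05 (9.05%). At such shares a count of 0 says little about a list this short. mEFTu1, an elongation factor that delivers aminoacyl-tRNA, had values of 8.91, 8.91 and 9.02 in the mutants and 9.14, 9.02 and 9.18 in the controls. Its difference was -0.17 (limma adjusted p = 0.60). The translocation factor gene mEFG1 had 0.14 and the initiation factor gene mIF3 0.20 (limma adjusted p = 0.671 and 0.675).

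Of 15 names for mitochondrial transcription and RNA processing, 12 genes were tested, with a median of 0.026. An unadjusted limma p under 0.05 was found in 0 of the 12, and in 9.05% of all tested genes. The smallest p-values belonged to mTerf3, of the transcription termination factor family (0.17, limma adjusted p = 0.629), the transcription factor gene mtTFB2 (0.13, limma adjusted p = 0.648) and rswl (0.06, limma adjusted p = 0.859). Of 9 names for maintenance of mitochondrial DNA, 3 genes were tested. These were the polymerase gene PolG1 (-0.12), mtDNA-helicase (0.06) and the single-strand binding protein gene mtSSB (0.01), with limma adjusted p-values from 0.801 to 0.968. On control replicate 1 the median deviation was -0.13 for the translation factors, -0.081 for transcription and RNA processing and -0.091 for the DNA genes. For the DNA genes it was lower on mutant replicate 3 (-0.13), and mtSSB had 9.51, 9.52 and 9.51 on control replicates 1 to 3.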

How the data were processed

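Expression was measured in 6 RNA pools of whole female larvae, 3 mutant and 3 control, on 1 array each. The deposited table gives a log2 expression value for each probeset and array. The authors made these with RMA, which corrects background, normalizes between arrays and summarizes probes, per the labels' design text. The submitters' processing notes name RMA too. The RMA version is not given in the sources used here. RMA gives arrays a common distribution (array medians 5.41 to 5.45), so a shift shared by all transcripts is removed. Most tested genes could still lie low on an array. On mutant replicate 3 only 35.5% of them lay above their 6-array mean. Present and absent calls, by which the authors filtered genes per the labels' design text, were not used here, and a filter on level replaced them.

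Probesets were named through the platform annotation, and chromosome arms and gene order came from the RefSeq table of Release 6 plus ISO1 MT, to which all 69 genes matched. Of 18952 probesets, 13647 had 1 symbol, 402 several and 4720 were not listed. Left out were 183 control probesets and, of the rest, the 40% with the lowest mean. limma 3.58.1 in R 4.3.3 (lmFit, eBayes, two-sided) was fitted to the remaining 11261 probesets, and p-values were adjusted by Benjamini-Hochberg, with calls under 0.05. Every adjusted p is from limma. The 8882 tested genes were each read by their brightest probeset. The pools were independent preparations, per the labels' design text, and 3 arrays a group limit the precision.

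The members, gene lists and subunit classes were chosen with earlier results of these data known, so lists are described by counts and medians and not tested. Named genes are those with the 6 smallest p, the 3 largest differences each way, the 4 largest and 3 smallest SD, more than 1 probeset, the mRpS18 paralogs and mRpL12, and the 3 smallest p of each pathway list. Genes singled out on control replicate 1 or on X were chosen after their values were seen. The deviations of same-numbered mutant and control arrays from their group means had correlations of 0.05, -0.19 and 0.32. Numbers were not taken as pairs in the main fit, and a fit with them as a block is among the alternatives. In simulated arrays of like level and spread, noise was drawn independently for each probeset and array, and 200 probesets were changed in the mutant. With 11261 probesets tested, the fit called 46.2% of 65 log2 changes of size 0.5 and 88.5% of 61 of size 1. Shifts shared by many genes on 1 array were not simulated, so these shares may differ from those in the real arrays. Figures were drawn with matplotlib 3.10.9. The alternatives are given in the closing section.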

Additional observations from a re-analysis of the deposited data

How the results depend on the processing

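The count of called genes among the 69 was 0 with all arrays, and also with no filter on dim probesets, with the lowest 60% left out, with quantile normalization and with the mean of all probesets of a gene. It was 1 with array weights (mRpL39), where the whole table had 232 called probesets in place of 62. Array weights also gave 7 of the 69 genes an unadjusted limma p under 0.05, in place of 2. Of these, 5 were higher in the mutant and 2 lower (mRpL48 and mRpL38). The share of all tested genes at that p is not given for this fit. With each array left out in turn the count of called genes was 0 to 0, with 1 to 3 genes at an unadjusted p under 0.05. The whole table then had between 12 and 84 calls. With the lowest 60% left out the table had 27 calls. The median difference of 0.068 lay between 0.034 (array weights) and 0.07 under these alternatives, and between 0.00017 (without control replicate 1) and 0.12 (without control replicate 3) with 1 array left out. With the replicate number as a block the count was 0, the median 0.068 and the table had 28 calls. The median could not change here, since a block leaves the differences of this balanced design as they are. With 3 arrays a group, the correlations cannot settle whether shared numbers pair the arrays. Mutant replicate 3 correlated best with control replicate 3 (0.32). Mutant replicate 1 correlated best with control replicate 2 (0.18), and mutant replicate 2 with control replicate 1 (0.21). Of 20 named genes, 14 kept their sign under all 12 alternatives, and mRpL17, mRpL22, mRpL47, mRpS18B, mRpS18C and mRpL12 did not. The filters on level and the block leave these differences unchanged, so they could not turn a sign. Part of the 20 genes were also named for large differences or small p in these data. The difference of mRpL39 ran from 0.49 to 0.63. The cause of these shifts was not tested.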

Other observations

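The surroundings of mRpL39 on 3L were examined after its value was seen. Of the 10 tested genes nearest to it in gene order, 5 on each side, 0 were called (limma, smallest adjusted p = 0.478). Over all tested genes 0.529% were called. A higher mutant mean was found in 4 of the 10, and in 48.8% of all tested genes. The differences of the 10 genes ran from -0.20 to 0.75. The direct neighbours of mRpL39, Zip71B and Prosbeta2, had 0.27 and -0.01. The largest difference was that of CG18581 (0.75), above the 0.57 of mRpL39. Zip71B and CG18581 had unadjusted limma p-values of 0.0283 and 0.0377, and 9.05% of all tested genes lay under 0.05.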
